A study of Homo sapiens with 6 samples.

Results

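The insulin-like growth factor (IGF) binding proteins IGFBP1 to IGFBP7, the receptors IGF1R and IGF2R and the insulin receptor substrate IRS1 were examined in heat-treated residual hepatocellular carcinoma (HCC) cells. Every probe set of the array that is annotated to exactly 1 of these 10 gene symbols was taken, which gave 27 probe sets of the 54613 that were tested. The genes were selected with measured values of the same 6 arrays already known, so the counts and differences given for them are descriptions without a test of their own. MHCC97H, an established human HCC line with a high tendency to metastasise, was exposed to sublethal heat at 47 °C, and the surviving cells were treated for 24 h with 100 ng/mL periostin (POSTN, 3 arrays) or with 0 ng/mL (control, 3 arrays). Heat was therefore shared by both conditions, no unheated array was compared, and a single cell line represents HCC. The labels number the 3 arrays of each condition 1, 2 and 3 but do not say whether they came from separate cultures, so any p-value measures the spread between these arrays, which may be technical.

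IGFs are hormones and local growth signals that act mainly through the receptor tyrosine kinase IGF1R, which passes the signal on through docking proteins such as IRS1. The IGFBPs are secreted proteins that hold IGFs in the circulation and around cells, limit or prolong their access to the receptor, and in part act without IGF. IGF2R, the cation-independent mannose 6-phosphate receptor, takes up IGF2 for degradation and does not signal as a kinase. The liver is the main source of circulating IGF1, hepatocytes make IGFBP1 in response to fasting and stress, and the IGF axis is often altered in HCC.

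Each value is a log2 signal of the MAS 5.0 algorithm, which condenses the probes of a probe set on 1 array into 1 number. A background level of 5.98 was taken as the 95th percentile of the mean signals of 107 probe sets of olfactory receptor genes, which are rarely active outside the nose. Of the 27 probe sets, 14 lay above this level on all 6 arrays, 5 on some arrays and 8 on none. Signals of different probe sets are not compared as levels, since each probe set binds with its own strength. Below the background level MAS 5.0 values scatter widely: the median SE of the POSTN difference was 0.55 over all probe sets and 0.18 over the 25320 probe sets with a mean above background. In a bulk culture, fewer cells of a kind and less RNA per cell cannot be told apart.

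Among the IGF genes above background, the differences between POSTN and control cells were small, and the larger differences lay between arrays of different replicate number, with IGFBP3, IGFBP2 and IGFBP6 higher on the arrays numbered 1. In the 14 probe sets above background, POSTN minus control ran from -0.17 to 0.22 on the log2 scale. Over all 27 probe sets the median was 0.03, against 0.01 over all probe sets tested, with 16 higher and 11 lower in POSTN cells. None of the 27 passed limma at an adjusted p under 0.05 (Benjamini-Hochberg over all probe sets, share of all probe sets called 0%), and the count over the whole array was also 0 with limma and with the methods' t-test. At an unadjusted p under 0.05, limma gave 2 of the 27 and 1649 of all probe sets. At the thresholds named by the study's methods (a p under 0.05 before adjustment, with a change of over 2-fold up or to under 0.5-fold), 1 IGFBP5 probe set was higher (1.44% of all probe sets were) and 1 IGFBP7 probe set was lower (1.12% of all were). In 2 probe sets all POSTN arrays lay above all control arrays (4.31% of all probe sets), and in 1 they lay below (3.63%).

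The arrays numbered 1 were then set against the arrays numbered 2 and 3, with condition in the model. Here 7 of the 27 probe sets, from 6 genes, passed limma at an adjusted p under 0.05: 6 were higher on number 1 (2.91% of all probe sets were) and 1 was lower (2.71%). On the 2 arrays numbered 1, 9 probe sets lay above and 2 below all 4 other arrays, against 13.6% and 12.7% of all probe sets. Over the whole array, 3069 probe sets passed. Without POSTN 1 the 7 fell to 2, both of IGFBP3, and without control 1 they also fell to the 2 of IGFBP3; without POSTN 2 there were 3. With a prior variance that does not follow the mean signal, 0 of the 27 and 0 of all probe sets passed. What the number stands for is not stated in the labels, so culture, day and array handling cannot be told apart.

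**Figure D1:**
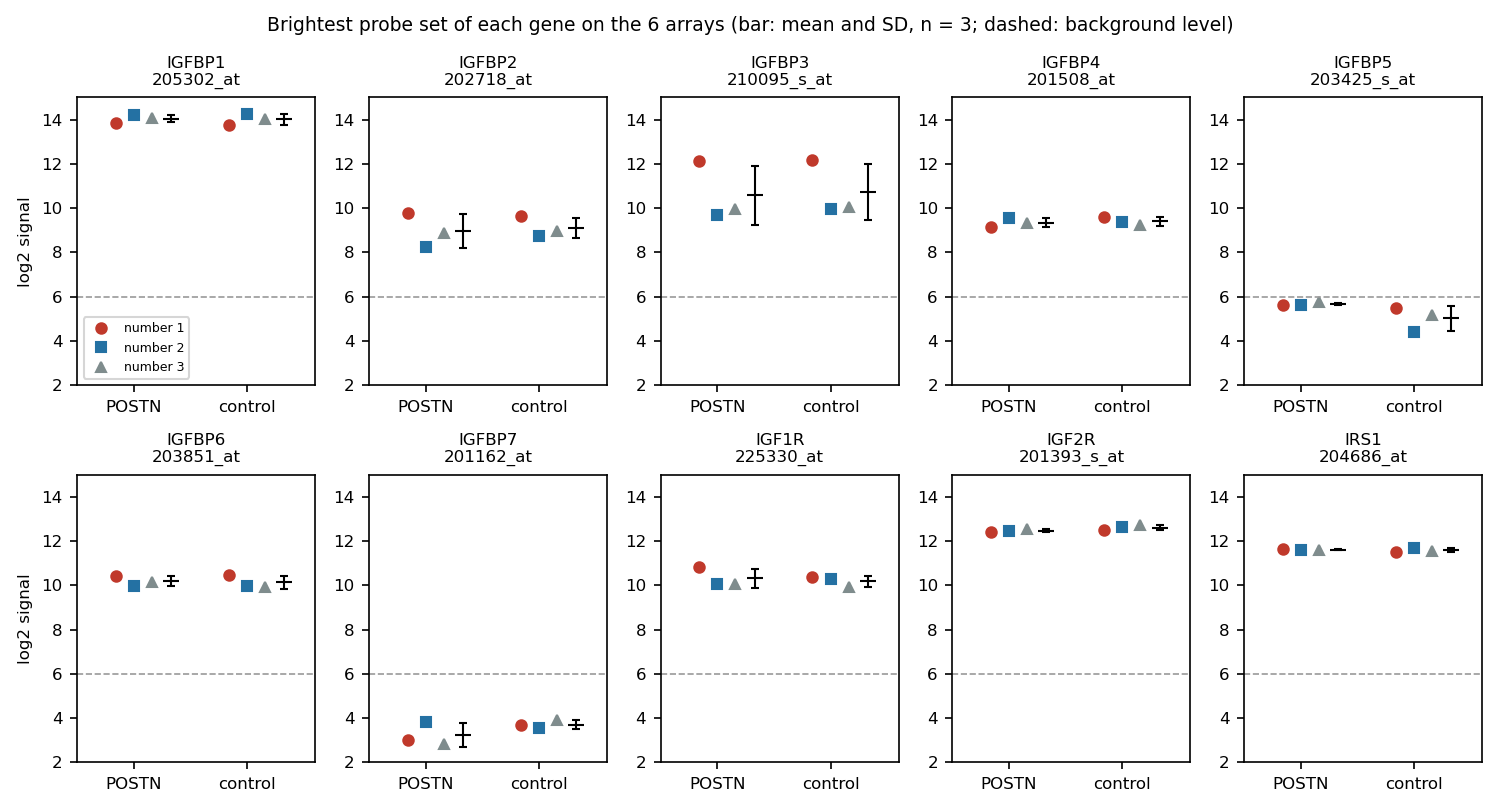
Log2 signal (vertical axis) of the brightest probe set of each of the 10 genes on the 3 POSTN and 3 control arrays, with colour and shape giving the replicate number, bars the mean and SD (n = 3) and the dashed line the background level of 5.98. For IGFBP3 the arrays numbered 1 stand at 12.10 and 12.17, with the 4 others between 9.67 and 10.04, whereas IGF2R and IRS1 lie close together on all arrays.

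IGFBP3, the main carrier of IGF in blood and a protein that can also slow growth without IGF, had the widest range over the 6 arrays among the genes above background. Its brightest probe set, 210095_s_at, had log2 signals of 12.10, 9.67 and 9.96 on POSTN arrays 1, 2 and 3, and of 12.17, 9.96 and 10.04 on control arrays 1, 2 and 3. Only number 1 stood apart, in the same direction in both conditions, and the conditions overlapped. The mean was 10.58 ± 1.33 in POSTN cells and 10.72 ± 1.26 in control cells (SD, n = 3 each), a difference of -0.15 ± 0.67 (SE). This SE includes the step by number. With the replicate number as a block in the model, a pairing the labels do not state, the SE was 0.08. The difference did not pass with the block either (limma, adjusted p = 0.97). Within the numbers, POSTN minus control was -0.07, -0.29 and -0.08. Number 1 exceeded numbers 2 and 3 by 2.23 ± 0.09 (SE), a 4.70-fold difference, with 2.29 in POSTN cells and 2.17 in control cells.

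The second IGFBP3 probe set, 212143_s_at, showed the same order of arrays. It had 10.77, 8.78 and 8.78 on POSTN arrays and 10.71, 8.65 and 8.79 on control arrays. The number difference was 1.99 ± 0.10, or 3.97-fold, and POSTN minus control was 0.06 ± 0.60. With the block the SE of the POSTN difference was 0.10. Both names end in _s_at, which marks probe sets whose probes can match more than 1 transcript.

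IGFBP2, a binding protein common in fetal liver and in tumors, was also highest on number 1. Probe set 202718_at had 9.76, 8.23 and 8.87 on POSTN arrays and 9.63, 8.73 and 8.96 on control arrays. Both arrays numbered 1 lay above the 4 others, by 0.99 ± 0.18 or 1.99-fold. POSTN minus control was -0.15 ± 0.35, with 0.13, -0.50 and -0.09 within the numbers.

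IGFBP6, which prefers IGF2 over IGF1, followed the same direction with a smaller step. Probe set 203851_at had 10.44, 9.99 and 10.15 on POSTN arrays and 10.46, 9.99 and 9.94 on control arrays. Number 1 was higher by 0.43 ± 0.09, a 1.35-fold difference. This step no longer passed when POSTN 2 was left out. POSTN minus control was 0.06 ± 0.17.

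IGFBP1, the binding protein that the liver raises under insulin lack and cell stress, was the 1 gene whose probe set passed the number comparison in the other direction. Probe set 205302_at had 13.87, 14.18 and 14.08 on POSTN arrays and 13.76, 14.27 and 14.00 on control arrays. Number 1 was lower by 0.32 ± 0.07 on the log2 scale. This no longer passed after quantile normalization, after median centring, with 50 added to the signals, or when POSTN 2 or POSTN 3 was left out. POSTN minus control was 0.03 ± 0.13. The other IGFBP1 probe set, 237989_at, was below background on all 6 arrays.

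IGFBP4, which mostly inhibits IGF action and is cut by the protease PAPPA, showed no common step by number. Probe set 201508_at had 9.14, 9.54 and 9.34 on POSTN arrays and 9.61, 9.39 and 9.22 on control arrays. Number 1 was the lowest of the POSTN arrays and the highest of the control arrays, so the number difference was -0.30 in POSTN cells and 0.30 in control cells. POSTN minus control was -0.06 ± 0.15, and it was 0.14 without both arrays numbered 1, a setting chosen after the data were seen.

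The stretches just before the transcription starts of 4 of these genes are shown because IGFBP3 and IGFBP6 were higher on number 1 in both conditions while IGFBP4 had no such step. IGFBP5 is shown as the gene whose probe sets disagreed: 211959_at was higher on number 1, while the number difference of the gene's brightest probe set, below background on all arrays, was 0.31 ± 0.59. RefSeq promoter entries (GRCh38.p14) were matched for 8 of the 10 genes, with 10 entries in all. IGFBP1 and IGFBP7 are named only. The last 100 bases before the start are given 5′ to 3′ on the gene's strand, with capitals for a TATA motif (TATAAA or TATATA, read on the gene's strand) or a GC box (GGGCGG or its reverse complement CCGCCC). The regions are chr7:45921273-45921372 on the minus strand for IGFBP3, chr12:53097567-53097666 on the plus strand for IGFBP6, chr17:40443350-40443449 on the plus strand for IGFBP4 and chr2:216695550-216695649 on the minus strand for IGFBP5.
IGFBP3: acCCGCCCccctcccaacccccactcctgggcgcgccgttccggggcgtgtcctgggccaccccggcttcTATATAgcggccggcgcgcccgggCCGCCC
IGFBP6: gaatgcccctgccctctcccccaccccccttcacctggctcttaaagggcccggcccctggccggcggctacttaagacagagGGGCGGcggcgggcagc
IGFBP4: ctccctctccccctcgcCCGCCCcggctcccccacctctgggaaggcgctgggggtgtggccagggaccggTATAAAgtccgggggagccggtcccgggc
IGFBP5: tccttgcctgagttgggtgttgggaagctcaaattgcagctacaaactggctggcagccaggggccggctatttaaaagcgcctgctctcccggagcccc

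The windows of IGFBP3 and IGFBP4 each held a TATA motif, which began 30 bases before the start in IGFBP3 and 29 bases before it in IGFBP4. The genes shown were picked after their values were seen, and a link between the motif and the step by number was not tested. The brightest probe sets of IGFBP2 and IGF1R were also higher on number 1 in both conditions. Their windows are not shown and held no TATA motif. Of the 10 windows of the IGF genes, 2 held a TATA motif, against 4.79% of all 35116 RefSeq windows of the same length. A GC box was found in 7 of the 10 windows and in 31.3% of all windows. The IGFBP3 window held 2 GC boxes, those of IGFBP6 and IGFBP4 held 1 each, and none was found in the IGFBP5 window. The E-box (CACGTG, which reads the same on both strands) was found in 1 of the 10 windows, that of IGF2R, and in 3.43% of all. A match in these letters is a description of the sequence and not a measured binding site. In the RefSeq gene order, IGFBP1 and IGFBP3 are neighbours on chromosome 7 with 0 protein-coding genes between them. The same holds for IGFBP2 and IGFBP5 on chromosome 2. The number difference had opposite signs in IGFBP1 and IGFBP3.

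IGFBP5, a binding protein of the extracellular matrix, had 6 probe sets, and they did not give a common picture. The brightest by mean, 203425_s_at, had 5.62, 5.63 and 5.74 on POSTN arrays and 5.47, 4.39 and 5.19 on control arrays. The POSTN arrays lay above the control arrays, by 0.65 ± 0.53, and all 6 values were below background. Probe set 211958_at had 6.03, 6.26 and 5.99 on POSTN arrays and 3.27, 3.10 and 3.55 on control arrays. Its POSTN values sat at the background level and its control values well below it, without overlap.

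The difference in 211958_at was 2.79 ± 0.62, which is a ratio of 6.90 between signals at and below background, and it was 2.76, 3.16 and 2.45 within the numbers. This is the IGFBP5 probe set that met the study thresholds. With a constant of 50 added to each linear signal before the log2, the fold change was 1.98 and the thresholds were not met. Number 1 differed from numbers 2 and 3 by -0.07 ± 0.73 in this probe set.

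Probe set 211959_at, named here after its values were seen, moved with the number instead. It had 7.08, 2.34 and 4.50 on POSTN arrays and 6.88, 2.80 and 4.15 on control arrays. Only the arrays numbered 1 were above background, and they exceeded the others, all below background, by 3.53 ± 0.88. With 50 added to the signals this step was 1.49. The step no longer passed the number comparison when POSTN 2 or control 2 was left out. POSTN minus control was 0.03 ± 1.31. The remaining IGFBP5 probe sets, 203424_s_at, 1555997_s_at and 203426_s_at, gave POSTN differences of -0.40, 0.93 and -0.13 and number differences of 0.92, 0.63 and 2.49. Of these 3, only 203424_s_at exceeded background, on 1 array. The 6 probe sets thus ran from -0.40 to 2.79 for POSTN and from -0.07 to 3.53 for the number.

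**Figure D2:**
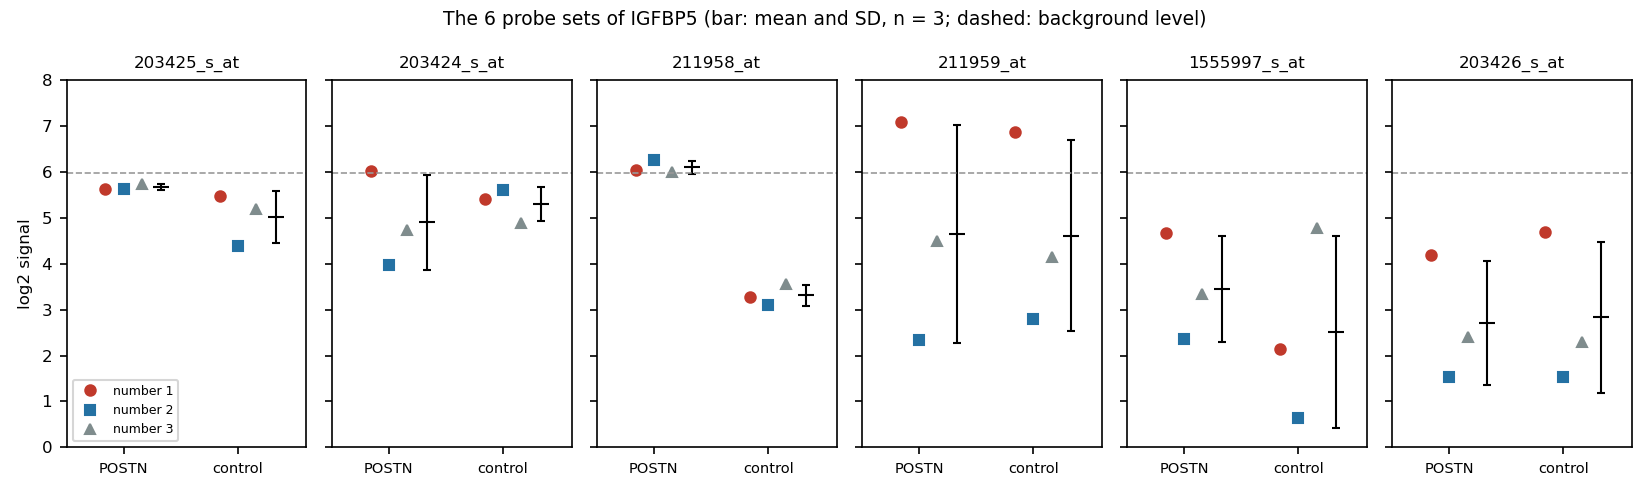
Log2 signal (vertical axis) of the 6 IGFBP5 probe sets on the 3 POSTN and 3 control arrays, with colour and shape giving the replicate number, bars the mean and SD (n = 3) and the dashed line the background level of 5.98. The conditions stand apart by 2.79 in 211958_at, and the arrays numbered 1 stand apart by 3.53 in 211959_at, where the other arrays lie below background.

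IGFBP7, a secreted protein related to the IGFBPs that binds IGF weakly, was below background in all 3 probe sets on all 6 arrays. Its brightest probe set, 201162_at, had 3.02, 3.83 and 2.85 on POSTN arrays and 3.69, 3.53 and 3.91 on control arrays, a difference of -0.48 ± 0.80. Probe set 213910_at, named after its values were seen, had 1.67, 1.69 and 0.38 on POSTN arrays and 3.17, 4.84 and 2.28 on control arrays. The conditions did not overlap, and the difference of -2.19 ± 0.96 met the study thresholds, yet no value was above background. It did not meet them with the methods' t-test, with 50 added to the signals, or when POSTN 1, POSTN 2, POSTN 3, control 1 or control 2 was left out. In the third probe set, 201163_s_at, POSTN minus control was 0.67 ± 1.32.

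IGF1R, the signalling receptor for IGF1 and IGF2, was measured above background by 2 of its 5 probe sets. The brightest, 225330_at, had 10.82, 10.06 and 10.07 on POSTN arrays and 10.37, 10.29 and 9.91 on control arrays. POSTN minus control was 0.13 ± 0.21, with 0.46, -0.23 and 0.16 within the numbers and -0.12 without POSTN 1. Number 1 was higher by 0.51 ± 0.13, with 0.76 in POSTN cells and 0.27 in control cells. This step no longer passed after quantile normalization, with 50 added, or when POSTN 2, POSTN 3 or control 3 was left out. The second, 203627_at, had 9.87, 10.02 and 9.87 on POSTN arrays and 9.67, 9.96 and 9.48 on control arrays. POSTN was higher within each number, by 0.22 ± 0.14 on average, though the conditions overlapped.

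The IGF1R probe sets did not share the number step, since 203627_at had a difference of -0.06 ± 0.13. The other 3 IGF1R probe sets were above background on 2, 1 and 0 arrays (203628_at, 243358_at and 208441_at). Their number differences were 2.56, 2.49 and -0.60, and their POSTN differences were 0.39, 0.36 and 0.58. All 5 probe sets were higher in POSTN cells on average, by 0.13 to 0.58, and none passed the test.

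IGF2R, which clears IGF2 and sorts lysosomal enzymes, varied little over the arrays. Probe set 201393_s_at had 12.41, 12.44 and 12.56 on POSTN arrays and 12.48, 12.61 and 12.71 on control arrays. POSTN was lower within each number, by 0.07, 0.18 and 0.14, and the mean difference was -0.13 ± 0.09. The other 2 probe sets, 201392_s_at and 1569052_at, gave POSTN differences of -0.05 and -0.17. The number differences of the 3 were -0.13, -0.02 and -0.17, and none passed the test.

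IRS1, the docking protein that links IGF1R and the insulin receptor to PI3 kinase, showed similarly small differences. Probe set 204686_at had 11.64, 11.61 and 11.59 on POSTN arrays and 11.52, 11.70 and 11.55 on control arrays, a difference of 0.03 ± 0.09. The other 2 probe sets, 242979_at and 238933_at, gave -0.13 ± 0.15 and 0.00 ± 0.19. The number differences of the 3 were -0.04, 0.04 and -0.10. The 3 IRS1 and 3 IGF2R probe sets were all above background on all 6 arrays.

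**Figure D3:**
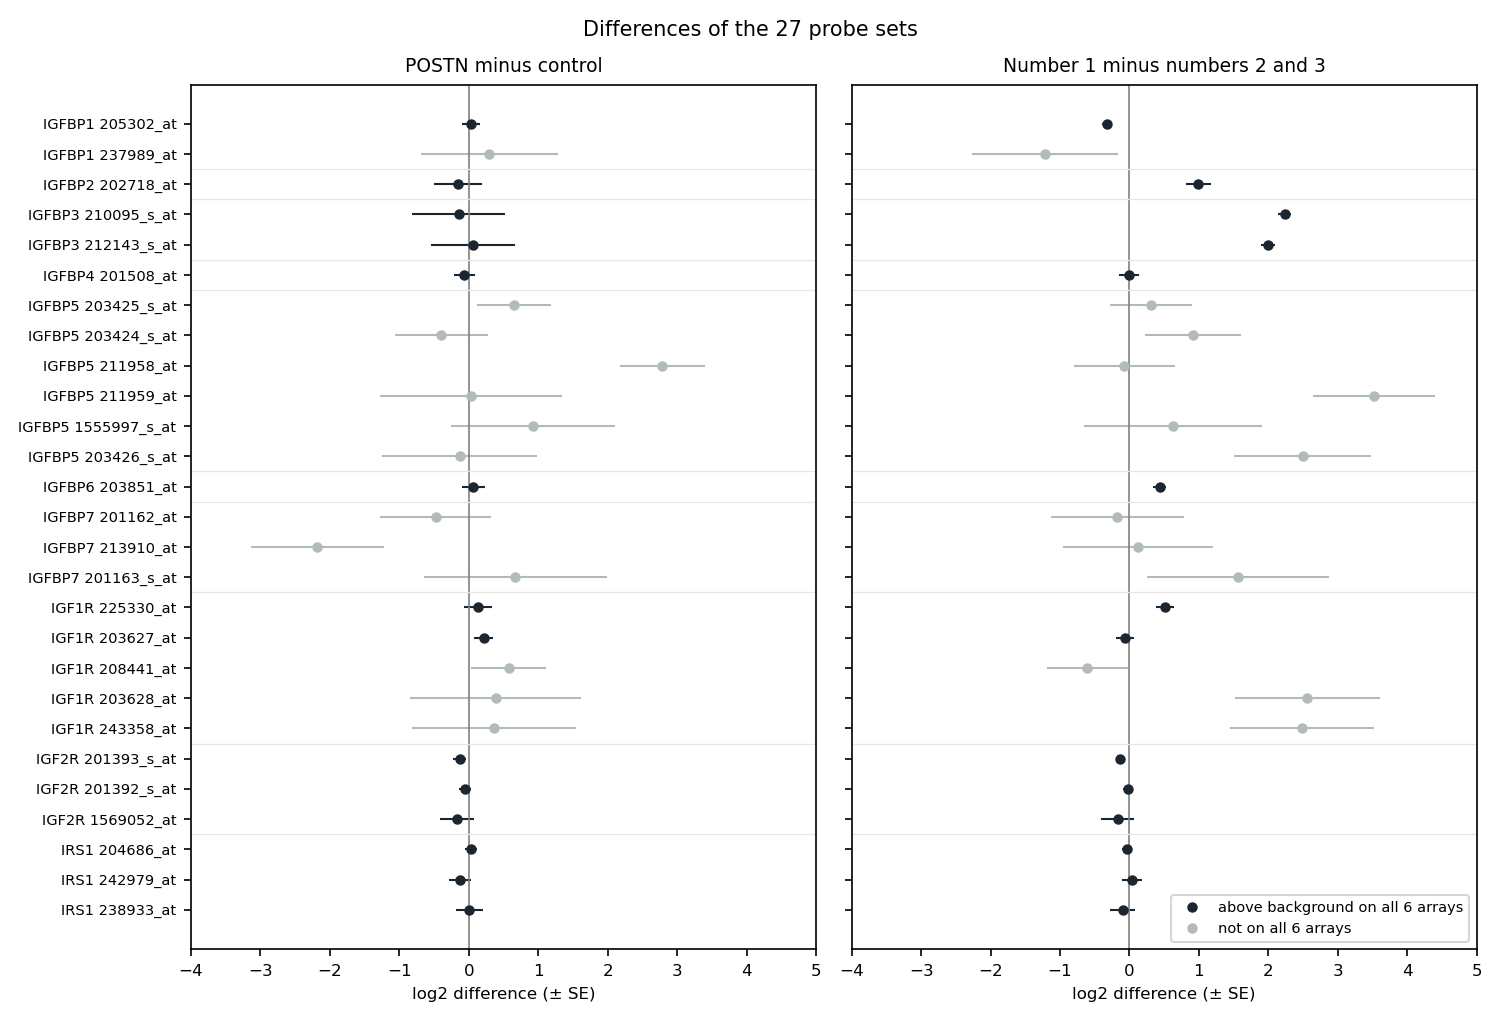
Log2 difference ± SE (horizontal axes) of each of the 27 probe sets for POSTN minus control (left) and number 1 minus numbers 2 and 3 (right), with dark points for the 14 probe sets above background on all 6 arrays. The dark points lie between -0.17 and 0.22 on the left, while on the right those of IGFBP3 reach 1.99 and 2.23.

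The interaction of POSTN with number 1 passed in 0 of the 27 probe sets and in 0 of all probe sets with limma (lowest adjusted p = 0.99). The number differences of the 2 IGFBP3 probe sets differed between POSTN and control cells by 0.12 ± 0.19 and 0.00 ± 0.21 (SE).

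The probe sets most like the brightest IGFBP3 probe set were those whose log2 values, centred over the 6 arrays, had the smallest root mean square difference from its own. Among 19285 probe sets with 1 gene symbol and signals above background on all 6 arrays, the 5 closest genes were TF (0.06), FGA (0.16), FGG (0.18), KALRN (0.20) and SULF2 (0.21). TF, the iron carrier transferrin, had 9.73, 7.18 and 7.49 on POSTN arrays and 9.66, 7.60 and 7.66 on control arrays. FGA, a fibrinogen chain made by hepatocytes, had 9.38, 6.84 and 7.27 on POSTN arrays and 9.19, 7.45 and 7.47 on control arrays. Since likeness was set on the values themselves, the shared step by number is a description over 6 arrays.

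A set of 34 other genes of the IGF pathway, chosen by function, was described by probe sets with 1 gene symbol. The 3 probe sets of IGF2 list a second gene, and IGF2 was not analysed here. POSTN minus control passed the test in 0 of the 34 brightest probe sets, with 18 higher, 16 lower and a median of 0.01. By number, 4 passed as higher on number 1 (2.91% of all probe sets did) and 4 as lower (2.71%). Of the 34, 28 had a mean above background, where calls are more frequent. Of the 25320 probe sets with such a mean, 1548 passed as higher and 1420 as lower. The median number difference of the 34 was -0.13 against 0.01 over all probe sets.

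Among ligands, IGF1 had 5.46, 6.87 and 5.09 on POSTN arrays and 5.85, 6.62 and 5.96 on control arrays in 209542_x_at. It exceeded background on 2 arrays, and POSTN minus control was -0.34 ± 0.53. Among receptors, INSR, the insulin receptor, had 10.10, 9.42 and 9.77 on POSTN arrays and 10.16, 9.76 and 9.83 on control arrays, with number 1 higher by 0.43 ± 0.11. Among docking and adaptor proteins, IRS2 gave a POSTN difference of -0.14 ± 0.13 and a number difference of -0.13 ± 0.11. GRB14, which inhibits insulin receptor signalling, was higher on number 1 by 0.42 ± 0.08. SHC1, an adaptor of receptor tyrosine kinases named here to complete the count, was lower on number 1 by 0.26 ± 0.05. Its POSTN minus control was -0.13 ± 0.11, with -0.11, -0.18 and -0.11 within the numbers.

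Of the other genes that passed by number, 1 was a protease, 1 an inhibitor of proteases and 3 came from the list of other proteins with an IGFBP domain. HTRA1, a secreted protease that can cut IGFBP5, was higher on number 1 by 1.57 ± 0.32. It had 8.06, 7.38 and 6.25 on POSTN arrays and 8.70, 6.78 and 6.82 on control arrays. IGFBPL1, a protein with an IGFBP domain, was higher by 0.77 ± 0.14. STC2, an inhibitor of PAPPA, fell by 0.90 ± 0.08 on number 1.

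CCN1 and CCN2, matrix proteins that carry an IGFBP domain and are known targets of YAP signalling, were also lower on number 1. CCN1 had 8.66, 9.88 and 10.06 on POSTN arrays and 8.80, 10.05 and 9.71 on control arrays, a number difference of -1.19 ± 0.12. CCN2 had 10.38, 11.27 and 11.26 on POSTN arrays and 10.19, 11.30 and 11.35 on control arrays, a number difference of -1.01 ± 0.08. The arrays numbered 1 were the lowest of both conditions in both genes, opposite to IGFBP3.

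**Figure D4:**
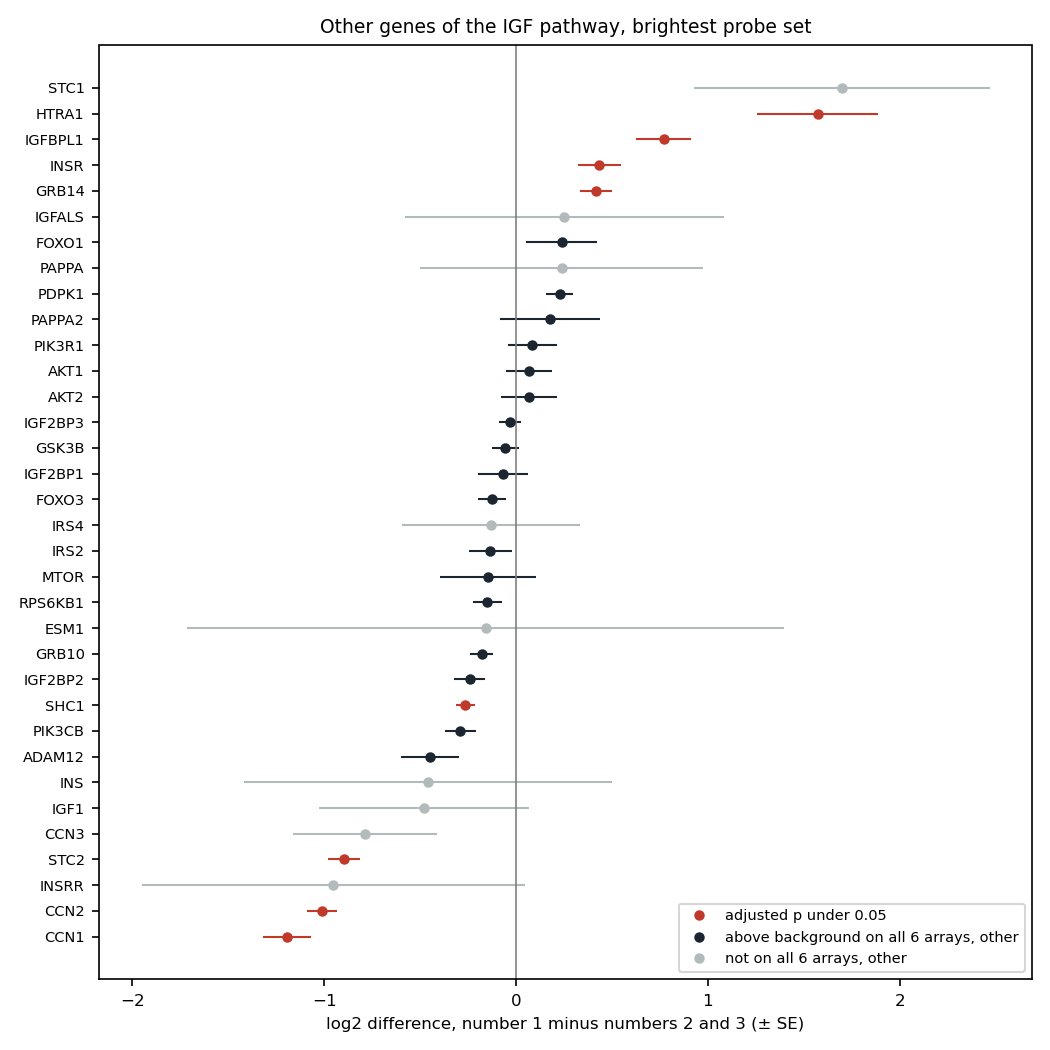
Log2 difference ± SE between number 1 and numbers 2 and 3 (horizontal axis) for the brightest probe set of each of the 34 other pathway genes (vertical axis), with red for an adjusted p under 0.05. HTRA1 (1.57), IGFBPL1 (0.77), INSR (0.43) and GRB14 (0.42) lie to the right, and CCN1 (-1.19), CCN2 (-1.01), STC2 (-0.90) and SHC1 (-0.26) to the left.

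The line's label was checked with cell type markers on the same arrays. The epithelial keratins KRT8 and KRT18 were at 13.86 or higher on all 6 arrays and AFP, a marker of fetal liver and HCC, lay between 8.85 and 9.16. From the same list of hepatocyte and HCC markers, GPC3 was above background on 1 array and APOA1 on 0 arrays. ALB, the hepatocyte product albumin, had 7.83, 5.65 and 6.12 on POSTN arrays and 7.75, 5.84 and 6.13 on control arrays. SERPINA1, another hepatocyte product, had 7.82, 5.16 and 5.85 on POSTN arrays and 7.79, 4.14 and 4.40 on control arrays. Number 1 was higher by 1.85 ± 0.33 in ALB and by 2.92 ± 0.50 in SERPINA1, beside the step of IGFBP3, and the part of these genes in that step was not tested. SERPINA1 was above background only on the 2 arrays numbered 1, so its difference is taken against values in the background range. ALB was above background on 4 arrays, with POSTN 2 and control 2 below it and POSTN 3 and control 3 just above it, so its step also starts near background. The list as a whole passed in 2 of 9, ALB and SERPINA1 (2.91% of all probe sets passed as higher), with 4 markers higher and 5 lower on number 1. APOB (-0.65) and KRT18 (-0.16) were lower on number 1 without overlap but did not pass, and TTR had -0.44. The log2 of the summed linear signals of this list ran from 15.48 to 15.61 on number 1 and from 15.61 to 15.74 on numbers 2 and 3. KRT18 (mean 15.02) and KRT8 (13.96) weigh most in that sum, and ALB (6.55) and SERPINA1 (5.86) add little to it. By condition that sum ran from 15.48 to 15.62 in POSTN cells and from 15.61 to 15.74 in control cells.

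Markers of stellate cells and fibroblasts, leukocytes and endothelium gave mixed signals, and HNF4A and CD68 were not analysed here. The stellate markers LUM (11.04 to 11.31), DCN (8.47 to 9.66) and COL1A1 (7.93 to 8.62) and the endothelial markers PECAM1 (9.79 to 10.54) and KDR (6.49 to 7.22) were above background on all arrays. CD3E was above it on 5 arrays, and COL3A1 and ACTA2 on 4 each, while COL1A2, PDGFRB, THY1 and POSTN itself were above it on 0 arrays, as were the defining leukocyte marker PTPRC and endothelial marker CDH5. By number, 1 of 10 stellate markers (DCN, 0.50-fold), 0 of 3 leukocyte markers and 1 of 4 endothelial markers (PECAM1, 1.43-fold) passed. Over all probe sets, 2.91% passed as higher and 2.71% as lower. The log2 of the summed stellate signals ran from 11.55 to 11.76 on number 1 and from 11.79 to 11.92 on numbers 2 and 3. By condition it ran from 11.76 to 11.92 in POSTN cells and from 11.55 to 11.85 in control cells. The leukocyte sum ran from 6.54 to 7.06 on number 1 and from 6.81 to 7.36 on numbers 2 and 3, and the endothelial sum ran from 10.46 to 10.70 on number 1 and from 9.98 to 10.31 on numbers 2 and 3. By condition the leukocyte sum ran from 6.54 to 7.36 in POSTN cells and from 6.81 to 7.23 in control cells, and the endothelial sum from 10.13 to 10.46 in POSTN cells and from 9.98 to 10.70 in control cells. LUM (mean 11.17) weighs most in the stellate sum and PECAM1 (10.10) in the endothelial sum. The part of the markers of these lists in the differences of the IGF genes was not tested.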

How the data were processed

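Total RNA of heat-treated MHCC97H cells was hybridised to Affymetrix Human Genome U133 Plus 2.0 arrays (3 with POSTN, 3 control). The authors used the MAS5 algorithm and affy (versions not given in the sources used here) and deposited log2 signals. Their linear mean without the outer 2% at each end was 500 on all 6 arrays, and the 62 Affymetrix control probe sets were left out. Of the 54613 others, 41091 list 1 gene symbol, 1801 several and 11721 none in the platform annotation. Precision is limited by the number of arrays.

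Differences were fitted in R 4.3.3 with limma 3.58.1 (lmFit, eBayes with trend), with Benjamini-Hochberg adjustment over all probe sets. The methods' t-test on the log2 values was an alternative. Same-numbered arrays deviated together above background (r = 0.53, 0.23 and 0.24 over 25320 probe sets), although neither the labels nor the methods state a pairing. POSTN 3 with control 2 gave r = 0.20 and POSTN 2 with control 3 gave 0.15, so numbers 2 and 3 were hardly told apart.

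The members and gene lists were chosen with earlier results of these data known. Values per array are given for each gene's brightest probe set, and for further probe sets above background in 1 condition that differ from it by over 1. Of the pathway genes IGF1, INSR and IRS2 are named, and the 6 with the largest number differences among those that passed.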

Additional observations from a re-analysis of the deposited data

How the results depend on the processing

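With POSTN against control, 0 of all probe sets passed at an adjusted p under 0.05 with limma under every setting run, and the interaction with number 1 passed in 0 under the 6 alternatives run for it. The 2 IGF probe sets at the study thresholds became 0 with 50 added to the signals, 0 with only probe sets above background, 1 with the methods' t-test and 1 without both arrays numbered 1 (added after the data were seen). Without 1 array at a time they were 1 to 2, and the one that stayed was IGFBP5 211958_at. With the replicate block, taken from the shared numbers, they stayed 2, the adjusted count stayed 0, and no call of the 27 probe sets changed. Among the pathway genes, STC1 (POSTN minus control -1.52) met the study thresholds with the block and not without it.

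The 7 IGF probe sets that passed by number became 0 without the variance trend and 2 to 6 without 1 array at a time. They became 5 after quantile normalization and 5 with 50 added, both without IGFBP1 205302_at and IGF1R 225330_at, and 6 with median centring, without IGFBP1. The 3069 over all probe sets became 0 without the trend, 1750 when names with _x_at or _s_at were left out and 657 to 3073 without 1 array at a time, with 657 without POSTN 1, 718 without control 1 and 1869 without POSTN 3. The causes were not tested, except that fewer arrays or probe sets entered where some were left out. Quantile normalization and median centring each shifted the POSTN differences by -0.05. Of 135 values of the brightest probe sets by number, 104 kept their direction and side of the threshold or stayed within the spread, 24 no longer passed and 7 moved. Of 145 for POSTN, 142 stayed within the spread and 3 moved. The sign differed from the reported value in 22 of the 145 and in 9 of the 135.

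Dim probe sets limit what can be said of IGFBP5 and IGFBP7.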
